A study of Mus musculus with 6 samples.

Results

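The data on natriuretic peptide and cGMP signalling in inguinal white adipose tissue (iWAT) are described for 7 genes, *Npr1*, *Npr2*, *Npr3*, *Gucy1a3*, *Gucy1b3*, *Prkg1* and *Pde5a*. They were listed for their place in the pathway and found by symbol among the 19445 loci of the gene table, and a symbol with several entries was taken from the entry with the highest mean FPKM. FPKM divides the reads of a gene by its transcript length and by the library's mapped reads, so levels of different genes can be set side by side. Libraries were made from iWAT of 3 *Hlx* transgenic mice (TG) and 3 littermate wild-type controls (WT), all 12 weeks old, kept without treatment and labelled male. In TG mice the *Hlx* cDNA, which encodes a homeobox transcription factor, was driven by the *aP2* (*Fabp4*) promoter, and the founders came from C57BL/6 × SJL embryos whose descendants were backcrossed to C57BL/6. The comparison asks which transcripts of this white depot differ when *Hlx* is overexpressed in cells that use this promoter.

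Natriuretic peptides are hormones, mainly of the heart, that bind receptors on fat cells and vessels. Binding to the guanylyl cyclase receptors makes cGMP inside the cell, while nitric oxide makes cGMP through a separate soluble cyclase of α and β subunits. cGMP activates the kinase encoded by *Prkg1*, phosphodiesterases break it down, and the clearance receptor removes the peptides without making cGMP. In fat cells this route is known to promote lipolysis and thermogenic gene expression in parallel with β-adrenergic signalling.

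*Hlx* had 110, 79.6 and 99.5 FPKM in the 3 TG mice and 6.88, 7.35 and 8.14 FPKM in the 3 WT mice, a log2 fold change of 3.51 (limma adjusted p = 0.000106, with a standard error of 0.13). Across the table, 18.6% of the 11692 tested loci had an adjusted p under 0.05, with 11.6% higher and 7.03% lower in TG, and 36.2% had an unadjusted p under 0.05. Relative depth, taken as the commonest ratio of low values between a library and WT replicate 3, ranged from 0.692 to 1.41 of that of WT replicate 3, and the absolute depth is unknown. Adipocyte markers were strongly present in all 6 libraries, with a summed level between 24647 and 34259 FPKM. Most of this sum was *Fabp4*, the gene whose promoter drives the transgene, with between 19297 and 29363 FPKM. *Xist*, an RNA of the female inactive X chromosome, had between 20.2 and 33.6 FPKM in the 6 libraries, and the 28 Y-linked loci were all at 0, so the libraries go against the label male in both genotypes. Skeletal muscle markers differed between mice, with a summed level of 62.9, 473 and 91.4 FPKM in TG replicates 1, 2 and 3 and of 4.96, 92.4 and 23.9 FPKM in WT replicates 1, 2 and 3.

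The receptor and soluble cyclase genes did not pass the test for a difference between the genotypes. The expression filter, a mean above 1 FPKM in at least 1 genotype, kept 5 of the 7 genes, and 0 of these 5 had an adjusted p under 0.05 (limma), beside the 18.6% of all tested loci. At an unadjusted p under 0.05 there was 1 gene, *Gucy1a3*. The 2 genotypes did not overlap at 3 of the 5 genes, *Npr2*, *Gucy1a3* and *Gucy1b3*, each lower in all 3 TG mice, and they did not overlap at 42.9% of all tested loci. The median log2 fold change of the 5 genes was -0.19, and that of all tested loci was -0.01. Fold changes are differences of log2(FPKM + 1), where low genes show less than their true change. In whole tissue, fewer cells of a type and less RNA per cell cannot be told apart. Each library came from a separate mouse, and with 3 mice against 3, the smallest two-sided p that exact permutation of 1 gene can reach is 0.1.

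**Figure D1:**
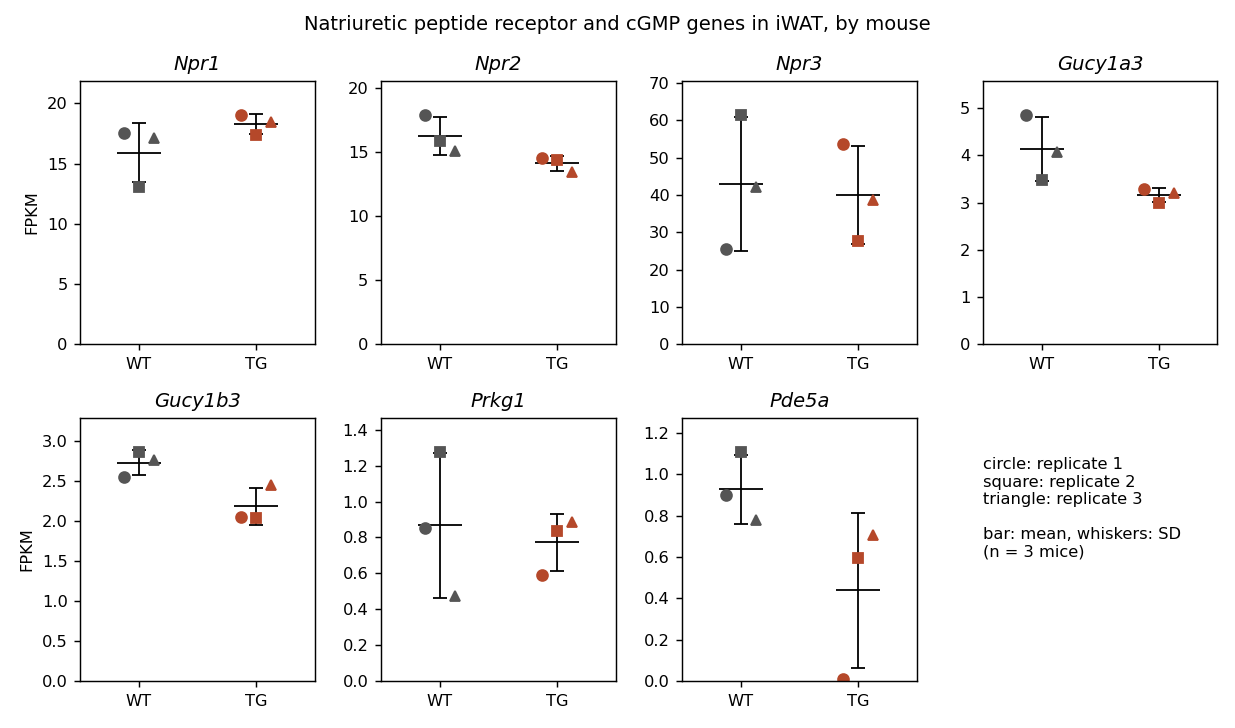
FPKM of each gene in the 3 WT and 3 TG mice (points, with the shape giving the replicate number), with the mean and SD of each genotype. *Npr3* ranges widely in both genotypes, *Npr2*, *Gucy1a3* and *Gucy1b3* lie lower in each TG mouse than in each WT mouse, and *Prkg1* and *Pde5a* have means under 1 FPKM in both genotypes.

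*Npr1*, on the minus strand of chromosome 3 of mm10 from 90449858 to 90465910, encodes the receptor cyclase for the atrial and brain natriuretic peptides. It had 19.0, 17.3 and 18.5 FPKM in the TG mice and 17.5, 13.1 and 17.1 FPKM in the WT mice. The genotypes overlapped, since TG replicate 2 lay below WT replicate 1, and WT replicate 2 was the lowest of the 6. The means were 18.3 ± 0.849 and 15.9 ± 2.46 FPKM (SD, n = 3 mice each), with a log2 fold change of 0.20, a 95% interval from -0.08 to 0.48 and an adjusted p of 0.27 (limma). Without WT replicate 2 the difference was 0.07. *Npr2*, the receptor cyclase for C-type natriuretic peptide, lies on the plus strand of chromosome 4 from 43631512 to 43651364. It had 14.5, 14.3 and 13.4 FPKM in the TG mice and 17.9, 15.8 and 15.04 FPKM in the WT mice. Every TG value lay below every WT value, with TG replicate 1 at 14.5 FPKM and WT replicate 3 at 15.04 FPKM the nearest to each other. The log2 fold change was -0.19 with a 95% interval from -0.39 to 0.02 (limma adjusted p = 0.164, exact permutation p = 0.1). Neither receptor differed beyond the spread between mice after adjustment.

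*Npr3* encodes the clearance receptor, which takes up natriuretic peptides for breakdown and lacks the cyclase domain. It lies on the minus strand of chromosome 15 from 11839893 to 11907594. *Npr3* had 53.6, 27.6 and 38.8 FPKM in the TG mice and 25.4, 61.4 and 42.1 FPKM in the WT mice. Both genotypes thus held a low, a middle and a high mouse. Its highest value was 1.94 times its lowest among TG mice and 2.41 times among WT mice. The SD within genotypes on the log2 scale was 0.549, larger than that of 97.6% of the tested loci, whose median was 0.138. The log2 fold change was -0.06 with a 95% interval from -0.88 to 0.75 (limma adjusted p = 0.909), so a change of less than about that size was not detectable with these mice. The sign of this difference turned to 0.17 without TG replicate 2 and to 0.23 without WT replicate 2.

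The mice highest in *Npr3*, TG replicate 1 and WT replicate 2, were also the highest of their genotype in 3 of the 8 adipocyte markers, *Lep*, *Pparg* and *Cd36*, which were picked out after their values were seen. The other 5 did not share this order, and WT replicate 2 was the lowest WT mouse in *Plin1* and *Cidec*. *Lep*, which encodes the hormone leptin, had 128, 58.6 and 71.0 FPKM in the TG mice and 90.6, 188 and 61.1 FPKM in the WT mice. *Pparg*, the nuclear receptor that drives fat cell differentiation, had 193, 103 and 95.7 FPKM in the TG mice and 116, 169 and 101 FPKM in the WT mice. *Cd36*, the fatty acid transporter, varied less, with 619, 498 and 573 FPKM in TG and 631, 646 and 642 FPKM in WT. The part of these in the *Npr3* level was not tested. The 2 tested loci whose profile over the 6 samples was nearest to that of *Npr3* were *Dixdc1*, a gene of the Wnt pathway, and *Prrt4*. Their root mean square differences from the centred log2 profile of *Npr3* were 0.178 and 0.193, beside an SD of *Npr3* itself of 0.492 over the 6 samples.

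Among the receptors, *Npr3* had the highest level per length in each of the 6 mice. Its WT mean of 43.0 ± 18.0 FPKM (SD, n = 3) was above that of 85.3% of the tested loci, and the WT mean of *Npr1* above that of 62.9%. The ratio of *Npr1* to *Npr3* sets RNA of a signalling receptor against RNA of the clearing receptor in whole tissue, and receptor protein was not measured. This ratio was 0.354, 0.628 and 0.476 in the TG mice and 0.689, 0.213 and 0.407 in the WT mice. The WT mice gave both the lowest and the highest ratio, and the TG mice lay between them. For *Npr2* to *Npr3* the ratios were 0.271, 0.519 and 0.346 in TG and 0.702, 0.258 and 0.358 in WT, which also overlapped. The ratio of *Npr1* to *Npr2* was 1.31, 1.21 and 1.38 in the TG mice and 0.982, 0.826 and 1.14 in the WT mice. Here the genotypes did not overlap, with *Npr1* above *Npr2* in all 3 TG mice and in 1 of 3 WT mice. This ratio was not among those planned, and neither of its genes had an adjusted p under 0.05 (limma). These ratios combine genes that were listed with earlier results of these data known, so they are given as a description with no test.

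**Figure D2:**
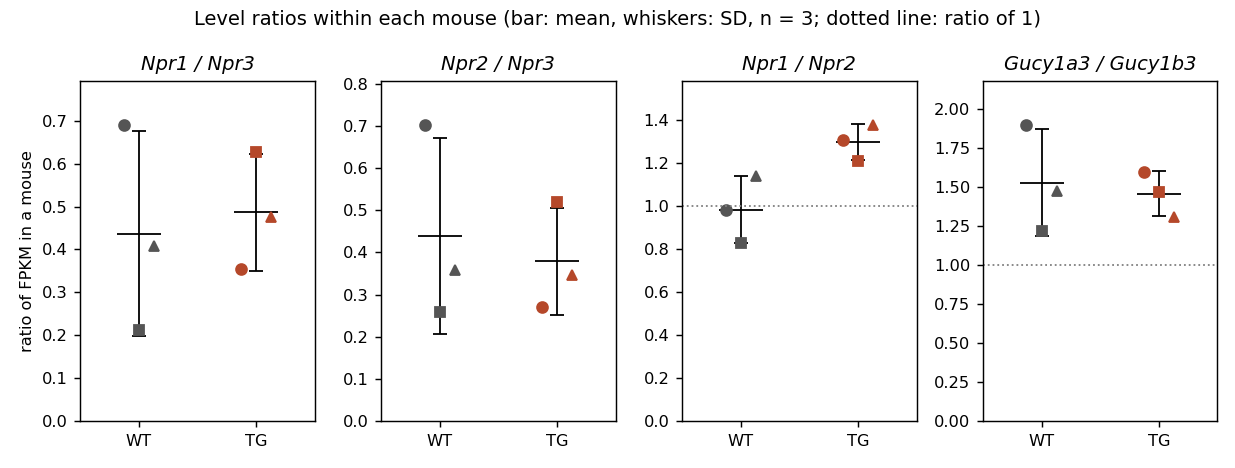
Ratios of FPKM between pairs of the genes within each mouse, with the mean and SD of each genotype and a dotted line at a ratio of 1. The ratio of *Npr1* to *Npr3* overlaps between the genotypes. That of *Npr1* to *Npr2*, which was not planned, lies between 1.21 and 1.38 in TG mice and between 0.826 and 1.14 in WT mice.

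The profiles nearest to *Npr1* were those of *Lztfl1* and *Stk35*, a kinase gene, with root mean square differences of 0.0329 and 0.0509. Those nearest to *Npr2* were *Fancl*, a ubiquitin ligase gene of DNA repair, and *Lmna*, which encodes nuclear lamins, at 0.0182 and 0.0293. All of these loci were tested and none had an adjusted p under 0.05 (limma, adjusted p from 0.151 to 0.321).

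The soluble guanylyl cyclase that answers nitric oxide is a dimer of the α1 subunit, encoded by *Gucy1a3* (now *Gucy1a1*), and the β1 subunit, encoded by *Gucy1b3* (now *Gucy1b1*). The genes are neighbours on the minus strand of chromosome 3, from 82092425 to 82145877 and from 82032003 to 82074711, with 17.7 kb between them. Both were picked for a look at their start sites after they were seen to lie lower in every TG mouse. *Npr2* and the higher entry of *Pde5a* also lay lower in every TG mouse, and their start sites are not shown. The genotypes also did not overlap at 42.9% of all tested loci, and neither cyclase gene had an adjusted p under 0.05 (limma). The RefSeq sequences (GRCm38.p6, the build mm10) run from 250 bases before to 50 after the start, written 5′ to 3′ on the minus strand. Matches to the CCAAT box and to the GC box GGGCGG, on either strand, are in capitals. The windows are chr3:82145601-82145900 for *Gucy1a3* and chr3:82074662-82074961 for *Gucy1b3*.
Gucy1a3: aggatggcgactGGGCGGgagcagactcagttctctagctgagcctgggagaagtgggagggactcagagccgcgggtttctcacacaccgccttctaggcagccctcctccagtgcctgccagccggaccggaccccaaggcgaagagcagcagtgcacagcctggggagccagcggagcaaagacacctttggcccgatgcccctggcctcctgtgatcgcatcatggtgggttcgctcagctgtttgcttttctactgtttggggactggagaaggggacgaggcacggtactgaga
Gucy1b3: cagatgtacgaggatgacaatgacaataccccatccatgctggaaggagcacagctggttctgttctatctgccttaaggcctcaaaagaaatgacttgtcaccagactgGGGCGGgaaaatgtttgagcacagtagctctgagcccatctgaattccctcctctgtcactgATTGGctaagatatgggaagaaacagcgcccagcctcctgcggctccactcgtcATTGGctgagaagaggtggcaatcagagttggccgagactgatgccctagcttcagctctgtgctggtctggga

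In these windows *Gucy1a3* had 1 match to GGGCGG and 0 to CCAAT, and *Gucy1b3* had 1 to GGGCGG and 2 to CCAAT. Of the 32851 promoter windows of this length in the reference, 35.7% held GGGCGG and 37.4% held CCAAT on either strand. TAAT, the core letters that many homeobox proteins bind, had 0 matches in both windows and was in 58.0% of all windows. The paper searched with a longer Hlx motif, and most of the sites it lists hold no TAAT on either strand. The lack of TAAT in these short windows thus says nothing on sites for Hlx. The start site of *Gucy1b3* is the end of its locus in the gene table, and that of *Gucy1a3* lies 227 bases from the end of its locus, with a second RefSeq start site not shown. A match is a description of the letters and not of binding.

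*Gucy1a3* had 3.28, 2.99 and 3.21 FPKM in the TG mice and 4.85, 3.48 and 4.07 FPKM in the WT mice. Every TG mouse was below every WT mouse, and the WT mice were the more spread. The means were 3.16 ± 0.149 and 4.13 ± 0.684 FPKM (SD, n = 3 each), a ratio of 0.765. On the log2 scale the difference was -0.29 with a 95% interval from -0.57 to -0.02 (unadjusted limma p = 0.0392, adjusted p = 0.119, exact permutation p = 0.1). *Gucy1b3* had 2.06, 2.04 and 2.46 FPKM in the TG mice and 2.56, 2.87 and 2.77 FPKM in the WT mice. TG replicate 3 came close to WT replicate 1, and the others lay further apart. The ratio of the means was 0.80, and the log2 difference was -0.23 with a 95% interval from -0.47 to 0.01 (limma adjusted p = 0.152, exact permutation p = 0.1). Neither subunit passed the adjusted threshold.

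The α1 to β1 ratio of FPKM was 1.59, 1.47 and 1.31 in the TG mice and 1.89, 1.21 and 1.47 in the WT mice, so the α1 transcript had the higher level per length in each of the 6 mice and the genotypes overlapped. The profiles nearest to *Gucy1a3* were those of *Car5b*, a mitochondrial carbonic anhydrase gene, and *Poc1b*, a centriole gene, with root mean square differences of 0.0315 and 0.037. Nearest to *Gucy1b3* were the zinc finger gene *Zfp498* and the RNA helicase gene *Ddx6*, at 0.032 and 0.0327. Vascular smooth muscle is known to make much soluble guanylyl cyclase. Of the 10 smooth muscle and pericyte markers, 0 had an adjusted p under 0.05 (limma, 2 at an unadjusted p under 0.05), and their median log2 fold change was -0.25. Their summed level was 225, 279 and 329 FPKM in the TG mice and 341, 256 and 259 FPKM in the WT mice. This sum overlapped between the genotypes, and of the 10 markers 7 had a negative and 3 a positive log2 fold change. The part of this list in the levels of the 2 cyclase genes was not tested.

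*Prkg1* encodes cGMP-dependent protein kinase 1, the main kinase that cGMP activates. It had 4 entries in the gene table, all with the locus from 30564486 to 31765033 on chromosome 19, which spans 1200.5 kb and also holds *Cstf2t*. The entry with the highest mean had 0.59, 0.838 and 0.889 FPKM in the TG mice and 0.851, 1.28 and 0.473 FPKM in the WT mice. The genotypes overlapped and both means lay under the filter, so this entry was not tested. With the 4 entries summed, *Prkg1* had 1.62, 2.25 and 2.202 FPKM in the TG mice and 2.205, 2.13 and 0.742 FPKM in the WT mice. The log2 difference was -0.06 for the single entry and 0.22 for the sum (limma adjusted p = 0.564 for the sum), so its sign depends on how the entries are read. Without WT replicate 3 the difference of the single entry was -0.22 (adjusted p = 0.454). WT replicate 3 was the lowest mouse both ways, and its value was 0 in 2 of the other 3 entries.

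*Pde5a*, the phosphodiesterase that sildenafil inhibits, breaks down cGMP and lies on the plus strand of chromosome 3 from 122729157 to 122860239. It had 2 entries with the same locus. The higher entry had 0.0113, 0.597 and 0.706 FPKM in the TG mice and 0.899, 1.11 and 0.777 FPKM in the WT mice. TG replicate 1 was near 0 there, and all TG values lay below the WT values. The other entry had 0.676, 0.605 and 0.671 FPKM in the TG mice and 0.574, 0.459 and 0.718 FPKM in the WT mice, where the genotypes overlapped and TG replicate 1 was not low. The 2 entries summed gave 0.687, 1.20 and 1.38 FPKM in TG and 1.47, 1.57 and 1.49 FPKM in WT, with every TG mouse below every WT mouse. The log2 difference was -0.46 for the higher entry, which was under the filter and not tested, and -0.28 for the sum (limma adjusted p = 0.23). TG replicate 1, the lowest mouse, had the lowest smooth muscle marker sum, 225 FPKM, whose part in its *Pde5a* value was not tested. Relative depth was 0.714, 1.14 and 0.692 in TG replicates 1, 2 and 3, and its part in the *Pde5a* values was not tested.

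**Figure D3:**
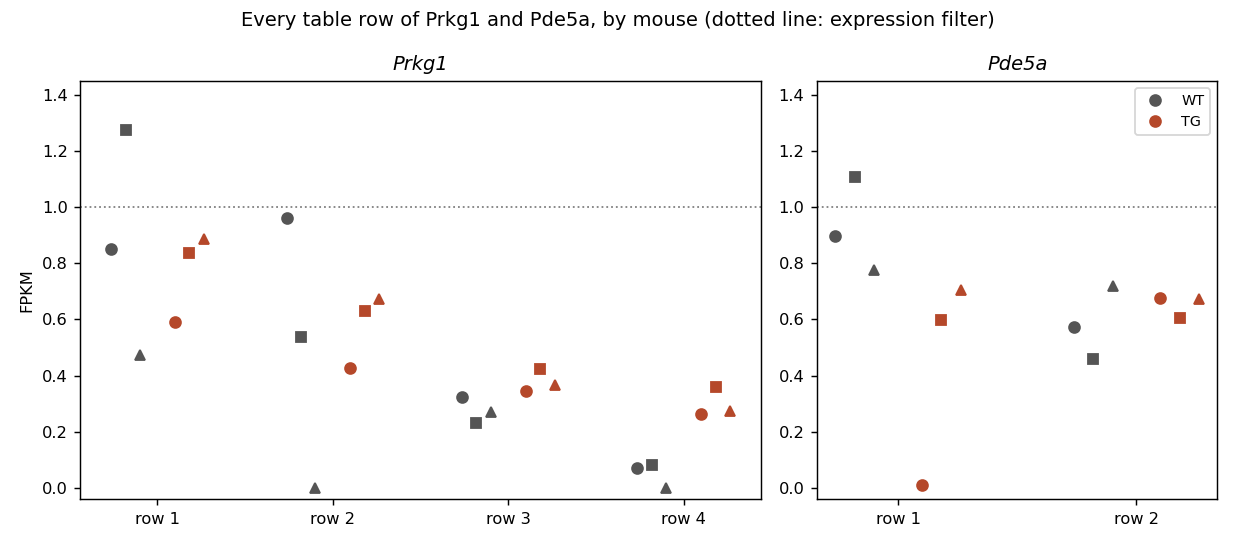
FPKM in every mouse for each table entry of *Prkg1* (4 entries) and *Pde5a* (2 entries), ordered by mean, with circles, squares and triangles for replicates 1, 2 and 3 and a dotted line at the filter of 1 FPKM. The entries of 1 gene give different orders of the genotypes, and only 1 mouse exceeds the line in the first entry of each gene.

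The rest of the pathway was read from 58 further genes, of which 57 were in the table by symbol and 30 passed the filter. Of these 30, 5 were higher in TG (*Ucp1*, *Itpr1*, *Ppargc1a*, *Abcc4* and *Atf2*) and 1 was lower (*Pde1b*) at an adjusted p under 0.05 (limma), beside 11.6% and 7.03% of all tested loci. *Ucp1* and *Ppargc1a* are also on the list of brown and beige adipocyte markers, and *Lipe* and *Plin1* on that of adipocyte markers. The higher genes on no marker list were *Itpr1*, *Abcc4* and *Atf2*. The median log2 fold change of the 30 genes was 0.04.

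Transcripts of the ligands themselves were almost absent. *Nppa* and *Nppb* encode the atrial and brain natriuretic peptides and *Nppc* the C-type peptide. *Nppa* was listed at 0, 0.106 and 0.0874 FPKM in the TG mice and at 0.128, 0.214 and 0.121 FPKM in the WT mice. *Nppb* was listed at 0 in 5 of the 6 mice and at 0.0465 FPKM in WT replicate 2, and *Nppc* was listed at 0 in all 6. *Mme* encodes neprilysin, a membrane peptidase that degrades natriuretic peptides. It had 30.3, 29.6 and 48.0 FPKM in the TG mice and 28.5, 27.0 and 25.2 FPKM in the WT mice (log2 fold change 0.37, limma adjusted p = 0.189). *Ide*, the insulin-degrading enzyme, which also cuts natriuretic peptides, had 45.1, 33.2 and 75.6 FPKM in TG and 31.1, 19.6 and 31.7 FPKM in WT (log2 fold change 0.83, adjusted p = 0.105). Every TG mouse was above every WT mouse for both peptidases, with TG replicate 3 the highest, and neither passed the threshold with all mice. Without TG replicate 3 the log2 differences were 0.15 for *Mme* and 0.51 for *Ide*. *Ide* passed it in 3 of 14 other settings, with the replicate block (limma adjusted p = 0.0317), with sample weights (0.0452) and without TG replicate 2 (0.0482).

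Of the genes of nitric oxide synthesis, 0 of the 6 tested had an adjusted p under 0.05 (limma, 1 at an unadjusted p under 0.05). *Nos3*, the endothelial synthase, had 13.3, 15.3 and 11.9 FPKM in the TG mice and 24.7, 16.1 and 17.3 FPKM in the WT mice. Every TG value was below every WT value, with WT replicate 1 far above the others, and the log2 fold change was -0.47 with a 95% interval from -0.87 to -0.08 (adjusted p = 0.0914), or -0.29 without WT replicate 1. Its locus overlaps that of *Atg9b*, and the counting is not known to have used strand, so reads of these 2 genes may not be told apart. *Nos2*, the inducible synthase, had 2.69, 1.55 and 1.08 FPKM in TG and 1.23, 1.32 and 1.31 FPKM in WT, which overlapped. *Nos1*, the neuronal synthase, was under 0.2 FPKM in every mouse. Of the 8 endothelial markers, 2 were higher in TG at an adjusted p under 0.05, *Kdr* and *Emcn*, with a median log2 fold change of 0.12 for the list. The summed endothelial level was between 191 and 205 FPKM in TG mice and between 179 and 185 FPKM in WT mice. Of the 8, 5 had a positive and 3 a negative log2 fold change, the latter *Pecam1*, *Tek* and *Esam*, and the part of this list in the *Nos3* level was not tested.

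Of 15 other genes of cGMP-binding or cGMP-hydrolysing phosphodiesterases and their subunits, 7 passed the filter. *Pde6d*, *Pde6g* and *Pde6h* in this list encode proteins without the enzyme activity, and of them *Pde6d* passed. *Pde1b*, a calcium-dependent phosphodiesterase of cGMP and cAMP, fell from 5.49 ± 0.946 FPKM in WT to 3.52 ± 0.202 FPKM in TG (SD, n = 3 each). Its values were 3.64, 3.64 and 3.29 FPKM in the TG mice and 4.41, 5.89 and 6.17 FPKM in the WT mice, with no overlap. The log2 fold change was -0.51 (limma adjusted p = 0.0322, with a standard error of 0.12), and the call was kept in 7 of 14 other settings. It was lost without the expression filter (adjusted p = 0.061), with the replicate number as a block (0.0633) and without any 1 of TG replicates 1 (0.0689), 2 (0.0567) and 3 (0.098) and WT replicates 2 (0.0988) and 3 (0.103). Its locus overlaps that of *Ppp1r1a*. *Pde2a*, which cGMP itself stimulates, differed by 0.25 on the log2 scale (adjusted p = 0.0805). *Pde3b*, the cAMP phosphodiesterase of fat cells that cGMP inhibits, had the highest level of the 15, with 67.2, 56.4 and 67.0 FPKM in TG and 73.8, 55.4 and 73.0 FPKM in WT, and a log2 fold change of -0.08 (95% interval from -0.40 to 0.24, adjusted p = 0.712), a sign that turned in 2 of 14 other settings.

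Both cGMP exporters of the list were higher in each TG mouse than in each WT mouse. *Abcc4*, a membrane pump for cyclic nucleotides, rose from 3.01 ± 0.222 to 4.67 ± 0.129 FPKM (SD, n = 3 each), which is 0.50 on the log2 scale (limma adjusted p = 0.01, with a standard error of 0.09). Its values were 4.54, 4.67 and 4.80 FPKM in the TG mice and 3.25, 2.81 and 2.97 FPKM in the WT mice. *Abcc5* differed by 0.28 on the log2 scale (adjusted p = 0.0602). Among the kinase substrates and their partners, *Itpr1*, the inositol trisphosphate receptor that releases calcium from the endoplasmic reticulum, rose from 8.21 ± 0.929 to 18.0 ± 1.42 FPKM (SD, n = 3 each). The TG mice had 19.4, 16.6 and 18.0 FPKM and the WT mice 7.76, 7.59 and 9.28 FPKM, a log2 fold change of 1.05 (limma adjusted p = 0.00123, with a standard error of 0.10). *Mrvi1*, the partner that ties this receptor to the kinase, differed by -0.08 on the log2 scale (adjusted p = 0.702). *Vasp*, an actin regulator and a substrate of the kinase, had 32.4, 43.1 and 37.6 FPKM in TG and 45.3, 46.5 and 52.4 FPKM in WT. Its log2 fold change was -0.35 (limma adjusted p = 0.0838), and an RNA level does not measure the activity of the kinase.

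Downstream in fat cells, *Atf2*, a transcription factor that p38 kinase activates, rose from 13.2 ± 0.422 to 18.7 ± 1.47 FPKM (SD, n = 3 each, log2 fold change 0.47, limma adjusted p = 0.0105). *Ppargc1a*, the coactivator of mitochondrial genes, had 5.66, 5.31 and 4.91 FPKM in TG and 3.71, 3.16 and 3.42 FPKM in WT (log2 fold change 0.51, adjusted p = 0.0122). *Ucp1*, the uncoupling protein of thermogenic fat, differed by 4.12 on the log2 scale in the same libraries (adjusted p = 0.00106). *Mapk14*, which encodes p38α, had a log2 fold change of -0.04 with a 95% interval from -0.20 to 0.12 (adjusted p = 0.689). The lipolysis genes *Lipe* and *Plin1* had log2 fold changes of 0.05 and 0.04 (adjusted p of 0.782 and 0.823). *Itpr1*, *Abcc4*, *Atf2*, *Ppargc1a* and *Ucp1* each kept their call in all 14 other settings.

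**Figure D4:**
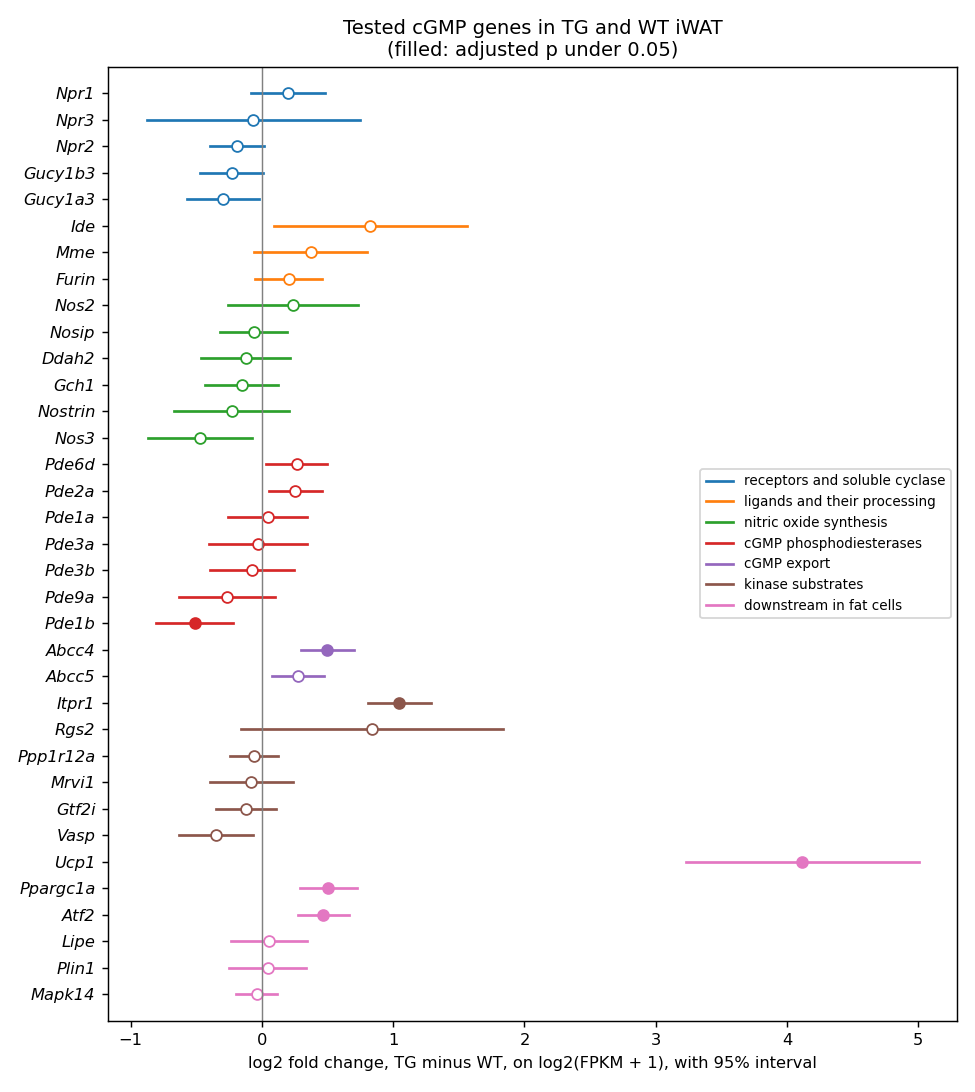
Log2 fold change (TG minus WT, on log2(FPKM + 1)) with its 95% interval for the 5 tested genes of receptors and soluble cyclase and for the 30 tested genes of the rest of the pathway, coloured by role, with filled points for an adjusted p under 0.05. The receptor and cyclase genes lie between -0.29 and 0.20 with open points, and the filled points are *Pde1b* on the left and *Abcc4*, *Itpr1*, *Ucp1*, *Ppargc1a* and *Atf2* on the right.

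Marker genes of other cells of the depot were read beside the pathway. Of the 8 brown and beige adipocyte markers, 7 were higher in TG at an adjusted p under 0.05 (limma), and of the 8 adipocyte markers 1 was lower, *Adipoq*. The 7 include *Ucp1* and *Ppargc1a*, which were also counted with the pathway. Of the 8 fibroblast and progenitor markers, 0 had an adjusted p under 0.05 (2 at an unadjusted p under 0.05), with a median log2 fold change of -0.19. Macrophage markers were lower in TG, 5 of 6 at an adjusted p under 0.05, with a summed level between 352 and 497 FPKM in TG mice and between 740 and 941 FPKM in WT mice. Of the 6 lymphocyte markers tested, 1 was lower, of the 5 epithelial and the 5 skeletal muscle markers none passed the adjusted threshold (1 of each at an unadjusted p under 0.05), and of the 4 nerve markers 2 were higher. *Th*, also on the nerve list, was listed at 0 in every mouse, and its RNA level in the depot does not measure nerve fibres. What part any of these lists has in the levels of the receptor and cyclase genes was not tested.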

How the data were processed

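RNA-Seq of iWAT from 3 TG and 3 WT mice was used. Single-end reads of 100 bases from TruSeq libraries were mapped to mm10 by the authors with TopHat and quantified with Cufflinks, and the submitters' processing notes name TopHat2 2.0.9, Bowtie2 2.1.0 and Cufflinks 2.2.1. The authors deposited FPKM per gene and mouse. The annotation is not given in the sources used here. Read counts were not used, so no count test was run.

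log2(FPKM + 1) was tested where either genotype averaged above 1 FPKM (11692 of the 19445 loci), with R 4.3.3 and its package limma 3.58.1 (linear fit and trended eBayes on genotype alone, two-sided, with Benjamini-Hochberg adjustment over these loci), and single genes with an exact permutation test of mean log2(FPKM + 1) over 20 arrangements. The 209 values above 0 but under 1e-06 were taken as 0. A symbol on several entries (409 symbols) was read from the entry with the highest mean. The test was checked on simulated data. The changes put in were larger than those of the tested receptor and cyclase genes, in loci of higher level than the soluble cyclase genes. The check thus does not bear on differences as small as theirs. Alternatives were a pseudocount of 0.1, dropping the filter, filtering on the 6-mouse mean, quantile and median-ratio scaling, eBayes without trend, sample weights, a replicate block, each mouse left out and summed entries. Named were the 7 genes, *Hlx*, the peptide ligands, the nitric oxide synthases, pathway genes with an adjusted p under 0.05 and the 2 nearest profiles of each tested gene. *Mme*, *Ide*, *Pde2a*, *Pde3b*, *Abcc5*, *Mrvi1*, *Vasp*, *Mapk14*, *Pde6d*, *Pde6g*, *Pde6h*, *Lipe*, *Plin1*, *Kcnma1*, *Rgs2* and the markers named fall outside this rule and were chosen after their values were seen. The ratio of *Npr1* to *Npr2* was also outside the plan. The genes and lists were chosen with earlier results of these data known. Strand, exons and overlaps come from GENCODE on the same build, and promoters from RefSeq (7 of 7 genes matched). Figures were drawn with matplotlib 3.10.9 in Python 3.11.15.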

Additional observations from a re-analysis of the deposited data

Results flagged for a closer look

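Entries of *Prkg1* that the comparison did not use showed a signal above the level in the WT mice. The third entry by mean had 0.345, 0.424 and 0.366 FPKM in the TG mice and 0.322, 0.232 and 0.269 FPKM in the WT mice. The fourth had 0.262, 0.359 and 0.273 FPKM in the TG mice and 0.0694, 0.0815 and 0 FPKM in the WT mice. The lowest TG values, 0.345 and 0.2625 FPKM, were each above every WT value, all under the expression filter, and the second entry, also at 0 in WT replicate 3, overlapped. The entries share 1 locus, and the table does not say how reads were divided between them. No group was large enough for a check of single outlying mice.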

How the results depend on the processing

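None of the 5 tested genes had an adjusted p under 0.05 (limma) in any of 14 alternatives, and *Npr1*, *Npr2*, *Gucy1a3* and *Gucy1b3* kept their direction in all of them. The log2 difference of *Npr3* ranged from -0.39 to 0.23 when each mouse was left out, and its sign turned without TG replicate 2 (0.17) and without WT replicate 2 (0.23). Summing its entries moved *Prkg1* from -0.06 to 0.22, also with a turned sign, and leaving out WT replicate 3 moved it to -0.22. Leaving out WT replicate 2 moved *Npr1* from 0.20 to 0.07. Leaving out each mouse gave 780 to 1295 loci higher and 329 to 906 lower in TG, beside 1352 and 822 with all mice, with fewer samples in each fit. In the rest of the pathway, 0 to 1 genes were lower when a mouse was left out, and the 1 gene without TG replicate 2 was *Vasp*, not *Pde1b*. Without the filter *Kcnma1* took the place of *Pde1b*, and the cause was not tested.

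Same-numbered mice of the genotypes correlated by 0.0129, 0.0344 and 0.0701 in their deviations, and 0 of 6 samples correlated best with their own number, so the numbers were not taken to pair the mice. With the replicate block 1230 loci were higher and 656 lower, and of the rest of the pathway 0 were lower and 7 higher (limma), the 5 called without it and *Rgs2* (adjusted p = 0.0256) and *Ide* (0.0317). No read counts were used, so counting error is unknown, and values under 1 FPKM, including those of *Prkg1* and *Pde5a*, are the least certain.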
